A study of Mus musculus with 23 samples.

Results

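The 33 genes described here encode the enzymes, importers and peroxins of the peroxisome, the organelle that shortens the fatty acids mitochondria do not take in directly. They were chosen by gene name, with no measured value in the rule, though with earlier results of these data known. All 33 of 33 were found among the 26522 genes of the series (21 enzymes and importers and 12 peroxins). Liver RNA was sequenced from 23 samples in 4 groups, 5 controls and 6 LKO livers from males and 6 of each from females. Every group carried the B100 genotype, had eaten a diet labelled WD for 16 weeks and was fed at necropsy. Control livers were labelled B100-Control. LKO livers were labelled B100-LKO, LKO being the loss of Cpt1a from the liver that the series title gives. Cpt1a is the enzyme that loads long-chain fatty acids onto carnitine at the mitochondrial outer membrane. The labels give neither the driver of the deletion, the meaning of B100, the composition of the diet nor an age. The comparison addresses how RNA of the peroxisomal route differs when the mitochondrial entry enzyme is lost.

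Peroxisomal beta-oxidation runs in steps that mirror the mitochondrial pathway. Importers of the ABCD family carry acyl-CoA across the membrane, an oxidase forms the double bond and passes its electrons to oxygen, a multifunctional enzyme hydrates and dehydrogenates the product, and a thiolase cleaves it. Catalase disposes of the hydrogen peroxide that the oxidases make. Thioesterases release free CoA and shortened acids, while CoA hydrolases cleave CoA itself. Peroxins build the organelle: some insert membrane proteins, others import matrix enzymes, and Pex11a elongates and divides the membrane. In rodent liver, several of these genes are classical targets of PPAR-alpha, the nuclear receptor that senses fatty acids.

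The deposited totals ran from 14224665 to 19626662 counts per sample. The 33 genes took 1.58 ± 0.10% of all counts in control males (SD, n = 5), 1.71 ± 0.10% in LKO males (SD, n = 6), 1.18 ± 0.18% in control females (SD, n = 6) and 1.36 ± 0.15% in LKO females (SD, n = 6). All 8 hepatocyte markers were detected in every group, with a median summed level of 64336 CPM (counts scaled to a common library total) in control males, 56728 in LKO males, 83990 in control females and 73924 in LKO females. Of the markers of other cell types, 0 were called in males. In females, where 1.42% of all genes were called, 2 of 9 macrophage markers rose in LKO livers (edgeR adjusted p under 0.05). Gpnmb had the lowest p of the 9 (edgeR adjusted p 0.00256), and the largest log2 fold change of that list was 3.22. Of the 5 markers listed for cholangiocytes 1 rose, Spp1 (edgeR adjusted p 0.0135), and the cholangiocyte sum below includes it. Of the markers of stellate, endothelial, T and B cells and neutrophils, 0 were called. Of the 9 macrophage markers 5 had a log2 fold change below 0 in females, with a median of -0.00059, while all 5 cholangiocyte markers lay above 0, with a median of 0.38. The summed macrophage markers ran from 336 to 571 CPM in control females and from 403 to 584 in LKO females, and the cholangiocyte markers from 39.9 to 49.8 and from 51.2 to 86.4, without overlap. Taken singly, 1 of the 5 cholangiocyte markers separated without overlap, beside 1.59% of all genes, and the sum without Spp1 was not examined. The part of these cell types in the results below was not tested, and in bulk RNA a change in cell number cannot be told from a change of RNA per cell. Control male 4 stood apart with the lowest rank correlation to its own group (0.970) and the fewest genes detected (18232). Without it 7 of 33 members changed sign in males (Acaa1a, Acaa1b, Amacr, Decr2, Pecr, Phyh and Pex10), and values without it are given beside the members it moved most.

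Cpt1a checked the labels. The control males held 321, 375, 381, 303 and 431 CPM, and the 6 LKO males ran from 42.2 to 96.8 with a median of 57.9. The control females ran from 285 to 431 CPM with a median of 400.1, and the LKO females from 61.8 to 86.3 with a median of 75.3. The groups did not overlap in either sex. LKO livers kept 17.6% of the control level in males and 19.6% in females, a difference of -2.53 and -2.33 in mean log2(CPM + 1) with an exact permutation p of 0.00216 in each (the smallest these group sizes allow in a two-sided test).

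In the control livers the peroxisomal genes spanned a wide range of levels. On the length-scaled FPKM scale (fragments scaled by gene length and library total), Acaa1b, a thiolase gene of rodents, was the most abundant at 2186 ± 351 in control males (SD, n = 5) and 1467 ± 543 in control females (SD, n = 6). Scp2, whose longer product is the thiolase for branched chains and bile acid intermediates, averaged 1006 ± 97.4 in control males, where it came next, and 620 ± 82.7 in control females, where Cat lay between them. Phyh, which starts the alpha-oxidation of phytanic acid, reached 816 ± 188 and 549 ± 70.2 FPKM, and Cat 696 ± 111 and 704 ± 52.2 in control males and control females. In both sexes Acaa1b stood clear of the next gene, and these 4 genes stood clear of Ech1 at 214 ± 25.5 and 192 ± 35.4 FPKM.

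At the low end, Abcd4 averaged 1.66 FPKM in control males and Acox3 1.87 in control females. Of 33 members, 8 were above 100 FPKM and 6 were below 5 FPKM in each sex. Most steps in the order were smaller than the spread: 25 of 32 neighbouring pairs overlapped in control males and 26 of 32 in control females. Peroxins sat in the middle and lower part of the order, from Pex16 at 86.9 FPKM in control males down to Pex10 at 2.14. The spread between livers of a group was moderate. The median coefficient of variation of a member's CPM was 14.2% in control males, 11.9% in LKO males, 11.8% in control females and 11.8% in LKO females. Pex7, the receptor for a small set of matrix enzymes, was the steadiest in both control groups at 3.66% and 4.28%. Abcd2 varied most in control males (55.6%), where control male 4 held 1.62 CPM and the other 4 livers 7.78 to 15.8.

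**Figure D1:**
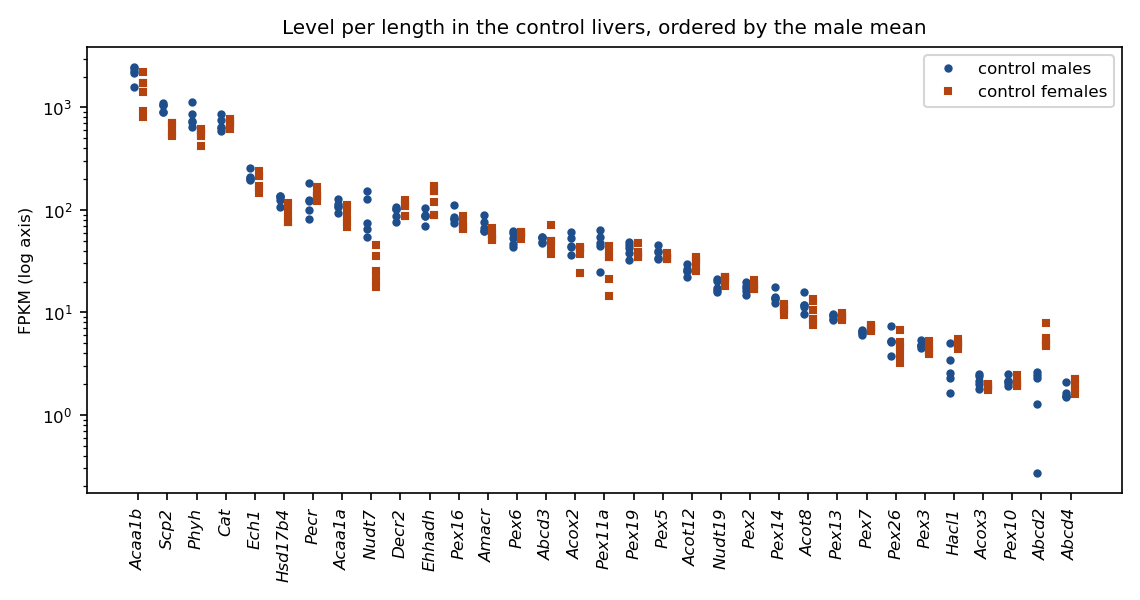
FPKM on a log axis for each of the 33 genes in the 5 control males (circles) and 6 control females (squares), ordered by the mean of the control males, with 1 point per liver. Acaa1b lies highest in both sexes and Scp2, Phyh and Cat form a group below it, while neighbouring genes further right overlap.

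Acaa1a and Acaa1b, which lie on chromosome 9, are near-identical copies, and their counts are uncertain. Their longest coding transcripts in GENCODE M21 match at 95.7% of 1471 aligned bases, and 34.0% of the 50-base stretches of Acaa1a occur unchanged in Acaa1b. How the counting assigned reads shared by the pair is not given in the sources used here. The same holds for overlapping genes: 18 of 33 members overlap another gene of the tables, 15 of them one on the opposite strand. Pex11a overlaps Gm44706, Acaa1a overlaps Myd88 and Slc22a14, and Acaa1b overlaps Dlec1, all on the opposite strand. Ehhadh, Cat and Acox2 overlap none.

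The promoter windows of the members are shown for the genes the comparisons turn on: Pex11a, with the largest difference, the copies Acaa1a and Acaa1b, and Cat, with opposite signs in the sexes. RefSeq windows on GRCm38.p6 held 27 of 33 members, and the 250 bases before each start were searched on both strands. Capitals mark the CCAAT box (CCAAT, or ATTGG on the other strand). The windows lie at chr7:79743132-79743381 (minus strand) for Pex11a, chr9:119341044-119341293 (plus strand) for Acaa1a, chr9:119157094-119157343 (minus strand) for Acaa1b and chr2:103485154-103485403 (minus strand) for Cat.
Pex11a: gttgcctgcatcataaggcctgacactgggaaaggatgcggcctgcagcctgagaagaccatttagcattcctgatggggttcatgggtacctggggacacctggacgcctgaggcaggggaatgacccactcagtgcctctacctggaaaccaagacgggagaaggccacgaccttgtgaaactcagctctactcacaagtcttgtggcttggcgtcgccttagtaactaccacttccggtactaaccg
Acaa1a: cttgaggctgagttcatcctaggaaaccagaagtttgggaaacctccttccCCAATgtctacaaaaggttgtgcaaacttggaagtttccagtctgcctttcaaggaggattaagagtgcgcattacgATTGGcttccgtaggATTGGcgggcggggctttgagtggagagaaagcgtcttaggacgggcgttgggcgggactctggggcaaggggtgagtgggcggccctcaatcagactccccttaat
Acaa1b: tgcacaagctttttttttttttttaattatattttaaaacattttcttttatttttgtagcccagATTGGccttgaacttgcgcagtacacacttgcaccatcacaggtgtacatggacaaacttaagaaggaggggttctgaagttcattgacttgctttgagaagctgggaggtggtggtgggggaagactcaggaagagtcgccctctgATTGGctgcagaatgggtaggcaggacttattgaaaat
Cat: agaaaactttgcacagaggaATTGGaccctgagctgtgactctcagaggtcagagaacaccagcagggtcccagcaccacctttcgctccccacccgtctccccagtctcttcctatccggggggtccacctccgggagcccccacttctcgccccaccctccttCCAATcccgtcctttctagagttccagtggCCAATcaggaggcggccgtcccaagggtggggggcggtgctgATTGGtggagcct

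Pex11a holds no CCAAT box in this window. Acaa1a holds 3, Acaa1b 2 and Cat 4, the last at positions -230, -85, -55 and -13 counted back from the start, so the near-identical transcripts of Acaa1a and Acaa1b begin behind windows with different placements (-199, -122 and -107 against -185 and -38). These 27 members have 33 windows in all, of which 12 (36.4%) hold a CCAAT box, beside 33.8% of all 32851 windows. The GC box (GGGCGG or CCGCCC) was found in 20 of the 33 windows (60.6%), beside 32.7%, and the median member window had 56.4% GC and 12 CpG, beside 52.4% and 6. The TATA box (TATAAA or TTTATA) was found in 3 (9.09%), beside 12.4%.

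The direct repeat that PPAR-alpha is known to bind (AGGTCANAGGTCA or TGACCTNTGACCT) was found in 0 of the 33 windows and in 0.0335% of all windows. Its half-site alone (AGGTCA or TGACCT, which the repeat contains) was found in 1 window each of Acot12, Cat and Scp2 (9.09% of the 33, beside 14% of all windows). These are matches of letters in short windows.

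None of the 33 genes passed the test in either sex. Each gene was tested with edgeR's quasi-likelihood test and Benjamini-Hochberg adjustment over all genes, and called at an adjusted p under 0.05. In males 0 of 33 members were called, where 0.00724% of all 13805 genes tested were (1 gene, Cpt1a). In females 0 of 33 were called, where 1.42% of all 13684 genes were (194 genes). All 33 members passed the filter on low counts in both sexes. The lowest adjusted p of any member was 0.306 in males, for Nudt19, and 0.0906 in females, for Pex11a. With the DESeq2 Wald test 0 members were called in males, against 1.27% of the genes it adjusted, and 2 in females, Pex11a above and Cat below their controls, against 3.64%.

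At an unadjusted p under 0.05, 2 members were past the threshold in males, which is 6.06% of the 33 where 12.5% of all genes were past it. Of these 1 was higher, beside 5.23% of all genes, and 1 lower, beside 7.22%. In females 10 of 33 were past it, or 30.3% where 15.6% of all genes were. Of these 7 were higher, beside 8.31% of all genes, and 3 lower, beside 7.33%. The 7 were Pex11a, Acaa1a, Acot8, Hsd17b4, Ehhadh, Scp2 and Pex14, and the 3 were Cat, Pecr and Abcd4. Control females 5 and 6 were the lowest controls for several of the 7, so these are not separate results. They held 268 and 266 CPM for Ehhadh, 260 and 258 for Hsd17b4, 339 and 298 for Acaa1a, and 15.1 and 17.1 for Acot8. The same livers were lowest for Pex11a, while for Scp2 control female 2 was lower (1825 CPM). Leaving out both livers together was not tested. In no member did LKO and control livers separate without overlap, which 1.77% of all genes did in males and 1.59% in females. The median log2 fold change of the members was 0.023 in males, beside 0.010 over all genes, and 0.093 in females, beside 0.0051 over all genes. The members above 0 numbered 19 of 33 in males (57.6%, beside 52.1% of all genes) and 21 of 33 in females (63.6%, beside 51.1%).

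The intervals give a range for the RNA change of each gene taken alone, not for the 33 genes together. In males the upper end of the 95% interval, which is not adjusted for the number of genes, lay below a 2-fold rise for 33 of 33 members and below a 1.5-fold rise for 30, all but Ehhadh, Abcd2 and Pex11a. In females it lay below a 2-fold rise for 32, all but Pex11a, and below 1.5-fold for 27, all but Ehhadh, Acaa1a, Acaa1b, Acot8, Pex11a and Pex26. The interval reached a 1.2-fold rise for 18 members in males and 19 in females, and lay wholly below it for the other 15 and 14.

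**Figure D2:**
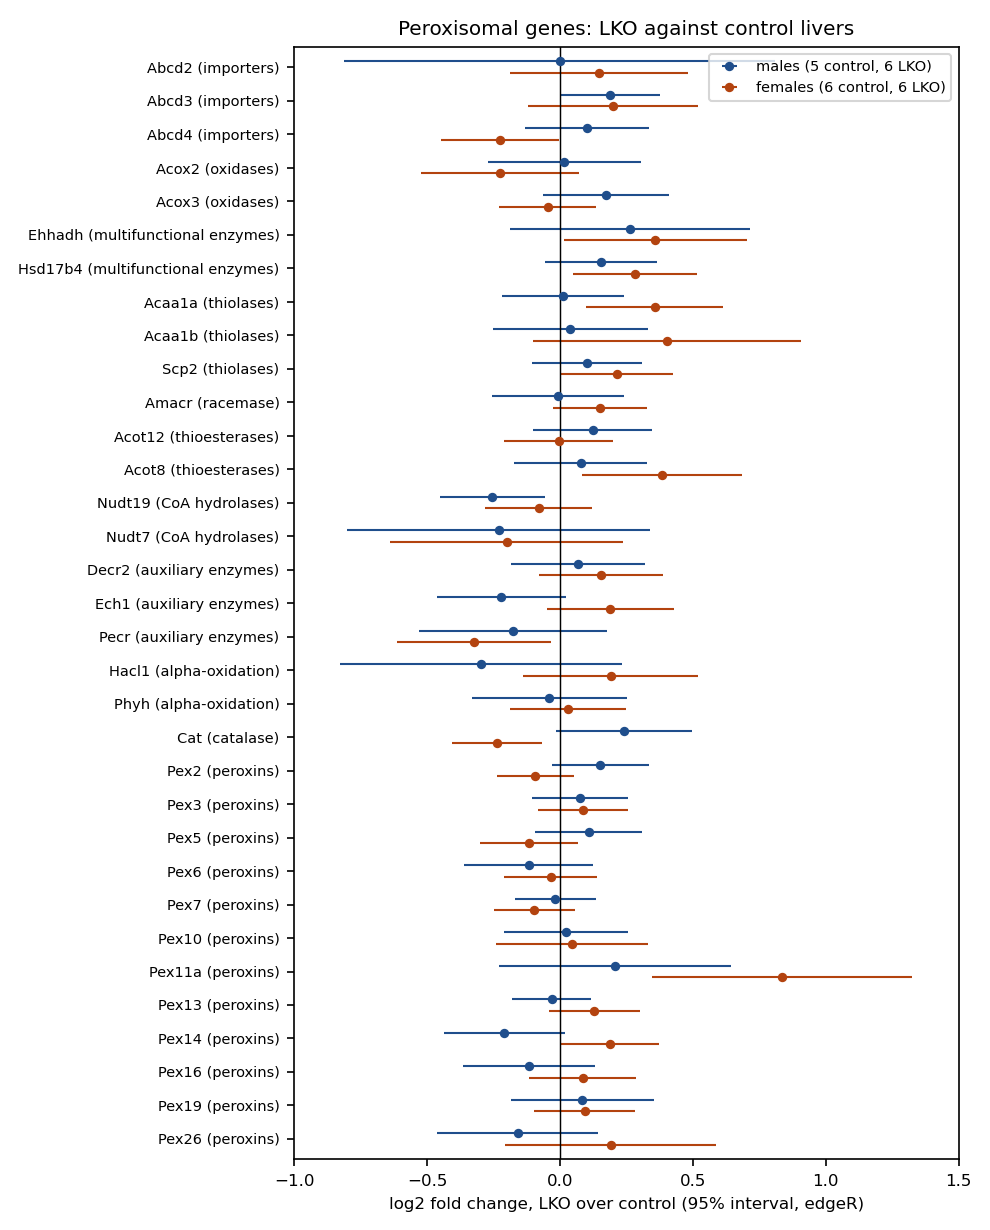
Log2 fold change of LKO over control for each member in males (blue, 5 control and 6 LKO) and females (orange, 6 and 6), with 95% intervals from edgeR and each gene's class in brackets. Most intervals cross 0, and Pex11a in females lies farthest to the right at 0.83.

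Among the importers, Abcd3, the carrier of branched-chain and dicarboxylic acyl-CoA, held 321, 323, 358, 357 and 361 CPM in the control males. The 6 LKO males ran from 331 to 442 with a median of 398, and 5 of 6 lay above every control. This gave a log2 fold change of 0.19 (SE 0.087), with an edgeR adjusted p of 0.396. Control females ran from 242 to 469 CPM and the LKO females from 281 to 437, with a log2 fold change of 0.20 (SE 0.15) and an adjusted p of 0.573. Abcd2, an importer of very long chains, gave a log2 fold change of -0.00076 in males and 0.15 in females, and -0.27 in males without control male 4. Abcd4, an ABCD protein known for moving cobalamin out of lysosomes, gave 0.10 and -0.22.

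The oxidases did not separate by genotype. Acox2, which acts on bile acid intermediates, gave a log2 fold change of 0.016 in males (0.12 without control male 4) and -0.23 in females. Acox3, which acts on branched chains, gave 0.17 and -0.047. Their adjusted p-values by edgeR were between 0.467 and 0.975 in both sexes.

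Ehhadh encodes the bifunctional enzyme that hydrates and dehydrogenates straight-chain and dicarboxylic acyl-CoA, and lies at chr16:21580037-21606557 in the deposited tables. The control males held 266, 314, 274, 259 and 212 CPM. The LKO males ran from 252 to 582 with a median of 266, and LKO male 5 alone made the upper end, since the other 5 reached no more than 284. In males this was a log2 fold change of 0.26 (SE 0.21, adjusted p 0.652), and 0.0019 without LKO male 5. The control females ran from 266 to 500 CPM with a median of 408, and the LKO livers from 386 to 594 with a median of 488. All 6 LKO females lay above the control mean, and 3 above every control. Its log2 fold change in females was 0.36 (SE 0.16), with an adjusted p of 0.300 by edgeR.

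Hsd17b4 encodes the other multifunctional enzyme, which serves branched chains and bile acid intermediates. It held 441, 472, 477, 366 and 460 CPM in the control males and 457 to 589 with a median of 475 in the LKO males. The control females ran from 258 to 390 CPM with a median of 315, and the LKO females from 353 to 422 with a median of 382. All 6 LKO livers lay above the control mean in each sex. On the log2 scale the difference was 0.16 (SE 0.098, adjusted p 0.544) in males, 0.094 without control male 4, and 0.28 (SE 0.11, adjusted p 0.225) in females. With the sexes fitted together it was 0.22 (SE 0.074), the second lowest p of the members in that fit, with an adjusted p of 0.176.

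The log2 fold changes of the thiolases were above 0 in both sexes, with larger values in females, and none was called. Acaa1a held 492, 510, 486, 411 and 575 CPM in the control males and 450 to 608 with a median of 473 in the LKO males, a log2 fold change of 0.011 (SE 0.11, adjusted p 0.980). In females it ran from 298 to 487 CPM with a median of 377 in controls and from 442 to 593 with a median of 487 in LKO livers. All 6 LKO females lay above the control mean, and 4 of 6 controls lay below every LKO liver. In females this was a log2 fold change of 0.36 (SE 0.12, adjusted p 0.160).

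Acaa1b, the copy with the higher level, held 4964, 4844, 4584, 3139 and 4305 CPM in the control males, and 3769 to 5336 with a median of 4381 in the LKO males. Its log2 fold change in males was 0.040 (SE 0.13, adjusted p 0.941). The sign of both copies in males turned when control male 4 was left out, to -0.048 for Acaa1a and -0.058 for Acaa1b. In females the controls ran from 1568 to 4336 CPM with a median of 3075, and the LKO livers from 2128 to 4501 with a median of 3981. LKO female 6 was far below the other 5, which held at least 3724. The log2 fold change in females was 0.40 (SE 0.24, adjusted p 0.445), and 0.56 without LKO female 6.

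Scp2 held 3230, 3777, 3198, 3832 and 3746 CPM in the control males and 3250 to 4124 with a median of 3885 in the LKO males. Control females ran from 1825 to 2459 CPM with a median of 2153, and the LKO females from 2200 to 2674 with a median of 2531. All 6 LKO females and 5 of 6 LKO males lay above the control mean of their sex. On the log2 scale the difference was 0.10 (SE 0.096, adjusted p 0.719) in males and 0.22 (SE 0.099, adjusted p 0.307) in females. Amacr, the racemase that readies branched chains for oxidation, gave -0.0062 and 0.15, and 0.084 in males without control male 4.

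Acot8 encodes the main acyl-CoA thioesterase of the peroxisome. The control males held 24.3, 19.5, 23.4, 23.4 and 32.2 CPM, and the LKO males 23.6 to 30.4 with a median of 25. Among females, the controls ran from 15.1 to 26.7 CPM with a median of 19.3, and the LKO livers from 22.8 to 32.2 with a median of 25.9. All 6 LKO females lay above the control mean, and 4 of 6 controls lay below every LKO liver. Acot8 thus had a log2 fold change of 0.078 (SE 0.12, adjusted p 0.846) in males and 0.39 (SE 0.14, adjusted p 0.196) in females. Acot12, an acetyl-CoA thioesterase known from the cytosol, gave 0.12 and -0.0044.

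The CoA hydrolases had log2 fold changes below 0 in both sexes, and neither was called. Nudt19 held 48.0, 57.6, 43.2, 53.8 and 44.6 CPM in the control males and 36.6 to 44.9 with a median of 42.6 in the LKO males. All 6 LKO males lay below the control mean and 3 below every control. Its log2 fold change of -0.25 (SE 0.092) had the lowest p of any member in males, with an edgeR adjusted p of 0.306. In females it ran from 48.8 to 59.5 CPM in controls and from 42.0 to 62.0 in LKO livers, a log2 fold change of -0.080 (SE 0.094, adjusted p 0.749). Nudt7, the liver's main peroxisomal CoA hydrolase, gave -0.23 and -0.20 with wide errors (SE 0.26 and 0.21). The value of Nudt7 in males was -0.0058 without control male 4, the upper end of the controls at 853 CPM, and that of Nudt19 was -0.22. Its level also differed between the tables, with 313 to 853 CPM in control males and 98.3 to 255 in control females, a contrast that was not tested.

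The auxiliary enzymes handle unsaturated chains. Ech1, an isomerase of both mitochondria and peroxisomes, held 477, 458, 493, 459 and 597 CPM in the control males. The LKO males ran from 369 to 551 with a median of 408, and 5 of 6 lay below every control, with LKO male 5 as the exception. In females the controls ran from 334 to 540 CPM with a median of 440.0, and the LKO livers from 454 to 538 with a median of 507, so the LKO median lay below the control range in males and above the control median in females. Ech1 had a log2 fold change of -0.22 (SE 0.11, adjusted p 0.449) in males and 0.19 (SE 0.11, adjusted p 0.452) in females. Decr2, the peroxisomal dienoyl-CoA reductase, gave 0.066 and 0.15, and -0.0048 in males without control male 4.

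Pecr, an enoyl-CoA reductase, held 155, 192, 126, 281 and 187 CPM in the control males and 148 to 188 with a median of 162 in the LKO males. Control male 4 was the highest of these. Its log2 fold change in males was -0.18 (SE 0.16, adjusted p 0.709), and 0.012 without control male 4. Among females, the controls ran from 185 to 254 CPM with a median of 207 and the LKO livers from 122 to 237 with a median of 160.1. In females 4 of 6 LKO livers lay below every control, with a log2 fold change of -0.32 (SE 0.14, adjusted p 0.266).

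In alpha-oxidation, Phyh held 1404, 1414, 1251, 2131 and 1644 CPM in the control males and 1307 to 1694 with a median of 1559 in the LKO males. In females the controls ran from 804 to 1158 CPM and the LKO livers from 941 to 1196, with a median of 1053 in each group. Its log2 fold change was -0.041 (SE 0.14, adjusted p 0.939) in males and 0.030 (SE 0.10, adjusted p 0.926) in females. Its sign in males turned to 0.095 without control male 4. Hacl1, the lyase that follows Phyh in the pathway, gave -0.30 (SE 0.25) and 0.19 (SE 0.15), and its value in males was -0.050 without control male 4.

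Cat, the catalase gene at chr2:103284194-103315505 in the deposited tables, lay above its controls in males and below them in females. The control males held 1745, 2018, 1577, 2249 and 1649 CPM, and the LKO males 1931 to 2543 with a median of 2103. The control females ran from 1631 to 1995 CPM with a median of 1864, and the LKO females from 1429 to 1679 with a median of 1538. All 6 LKO males lay above the control mean of the males, and all 6 LKO females below that of the females, where 5 of 6 controls exceeded every LKO liver. Cat had a log2 fold change of 0.24 (SE 0.12, adjusted p 0.433) in males and -0.24 (SE 0.080, adjusted p 0.156) in females. DESeq2 gave an adjusted p of 0.323 in males and 0.0172 in females. The authors' deposited table lists the same adjusted p for Cat in females, 0.0172, with the same log2 fold change as DESeq2 on the same counts. It is not a second line of support.

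Pex11a, at chr7:79385705-79392879 in the deposited tables, showed the largest difference of the 33 genes. The control females ran from 46.0 to 142 CPM with a median of 110, and the LKO females from 136 to 244 with a median of 178. In females 5 of 6 LKO livers lay above every control, and 5 of 6 controls lay below every LKO liver. Control females 5 and 6 were the lowest, at 67.4 and 46.0 CPM. The log2 fold change in females was 0.83 (SE 0.23), or 1.78-fold with a 95% interval of 1.27 to 2.5. Its edgeR p was 0.00248, or 0.0906 adjusted over all genes, and its DESeq2 adjusted p was 0.0128. Pex11a was thus called by DESeq2 and not by the main edgeR fit. The authors' deposited table holds the same adjusted p for Pex11a in females, 0.0128, from the same counts, which is not a second result. Leaving out single livers gave 0.69 to 0.96, with adjusted p-values from 0.0552 to 0.191.

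In males Pex11a held 157, 144, 208, 79.6 and 175 CPM in the controls and 134 to 204 with a median of 189 in the LKO livers. The log2 fold change there was 0.21 (SE 0.20, adjusted p 0.729), and 0.045 without control male 4, the lowest of the controls. The control females therefore lay lowest of the 4 groups, and the LKO females near both male groups, although levels of the 2 tables were scaled separately.

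The other 11 peroxins gave log2 fold changes between -0.21 and 0.19 in both sexes. Pex14, which docks the import receptors at the membrane, held 92.0, 78.0, 87.4, 86.7 and 113 CPM in the control males and 67.2 to 91.9 with a median of 79.7 in the LKO males. In females it ran from 58.9 to 75.3 CPM in controls and from 63.2 to 91.1 in LKO livers, and 4 of 6 LKO livers lay above every control. Its log2 fold change was -0.21 (SE 0.11, adjusted p 0.441) in males and 0.19 (SE 0.086, adjusted p 0.310) in females. Pex13, its partner in docking, gave -0.031 and 0.13. The import receptors Pex5 and Pex7 gave 0.11 and -0.018 in males and -0.12 and -0.096 in females.

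Pex2 and Pex10 of the ubiquitin ligase that recycles the receptors gave 0.15 and 0.023 in males and -0.093 and 0.046 in females. Pex6, a motor that extracts the receptors, and Pex26, its anchor, gave -0.12 and -0.16 in males and -0.035 and 0.19 in females. The membrane insertion factors Pex3, Pex16 and Pex19 gave 0.074, -0.12 and 0.084 in males, and 0.088, 0.085 and 0.093 in females. Without control male 4 the values in males were -0.018 for Pex10, 0.058 for Pex5 and 0.0020 for Pex19. Across the 12 peroxins, 6 lay above 0 in males with a median of 0.0027, and 8 in females with a median of 0.087. Across the 21 enzymes and importers, 13 lay above 0 in each sex, with a median of 0.040 in males and 0.15 in females.

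**Figure D3:**
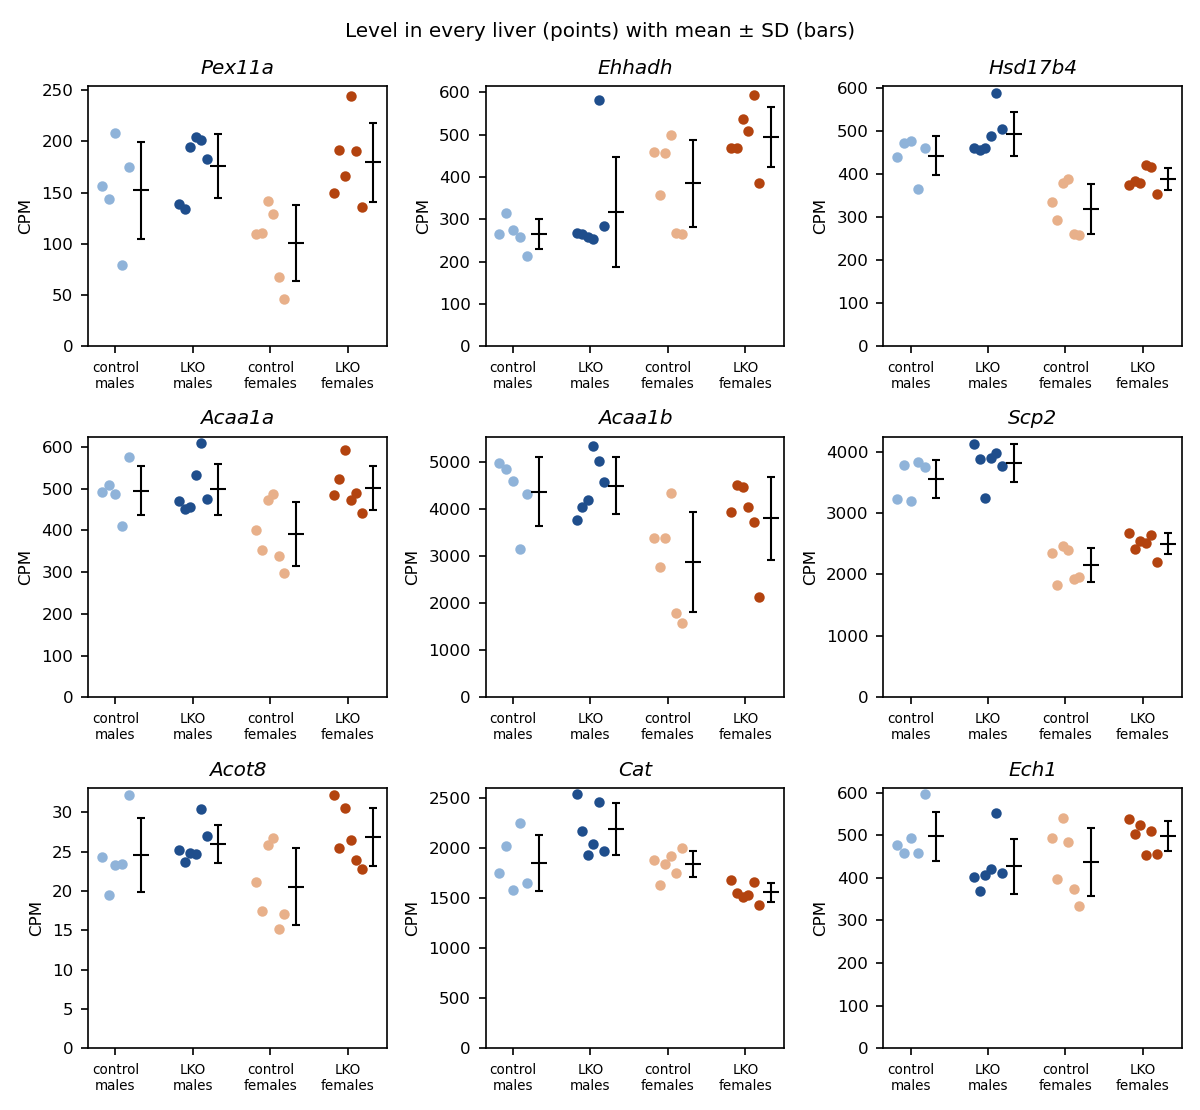
CPM of 9 members in every liver (points, by group, in the order of the replicate numbers) with the mean and SD of each group as bars to the right, each axis starting at 0. The groups overlap in every panel; Pex11a shows the widest gap between control and LKO females, and LKO male 5 stands alone for Ehhadh.

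The sexes were then compared directly. The genotype by sex interaction, fitted on the 23 samples, called 0 of 33 members and 0% of all 14503 genes by edgeR. DESeq2 also called 0 members, where it called 0.721% of all genes. At an unadjusted p under 0.05 it held 6 members, 18.2% of the 33 beside 12.9% of all genes. The difference was above 0 (a higher value in females) for Ech1, Pex14 and Acaa1a, beside 6.98% of all genes, and below 0 for Cat, Pex2 and Abcd4, beside 5.94%. Of the 33 members, 24 had an interaction above 0, beside 51% of all genes. Cat had the lowest p of the members at 0.00193, with an interaction of -0.48 (SE 0.14), an edgeR adjusted p of 0.193 and a DESeq2 adjusted p of 0.0503. Pex14 gave 0.40 (SE 0.14, adjusted p 0.257) and Ech1 0.41 (SE 0.16, adjusted p 0.307).

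The interaction of Pex11a was 0.62 (SE 0.33), with an adjusted p of 0.431, so its larger value in females was not shown to differ from that in males. Sex coincides with the table, and a difference between the tables in library making or counting cannot be told apart from sex.

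With the sexes fitted together, 0 of 33 members were called, where 0.365% of all genes were (53 genes), and DESeq2 again called 0 members, where it called 1.76%. At an unadjusted p under 0.05, 9 members were past the threshold (27.3%, beside 13.9% of all genes). Of these 7 were higher, beside 7.16% of all genes, and 2 lower, Pecr and Nudt19, beside 6.78%. In all, 19 of 33 members lay above 0, beside 52.2% of all genes. Pex11a had the lowest p, with a log2 fold change of 0.54 (SE 0.17, adjusted p 0.166). The median of the members was 0.037, beside 0.0082 over all genes, and 31 of 33 upper bounds lay below a 1.5-fold rise, all but Ehhadh and Pex11a.

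**Figure D4:**
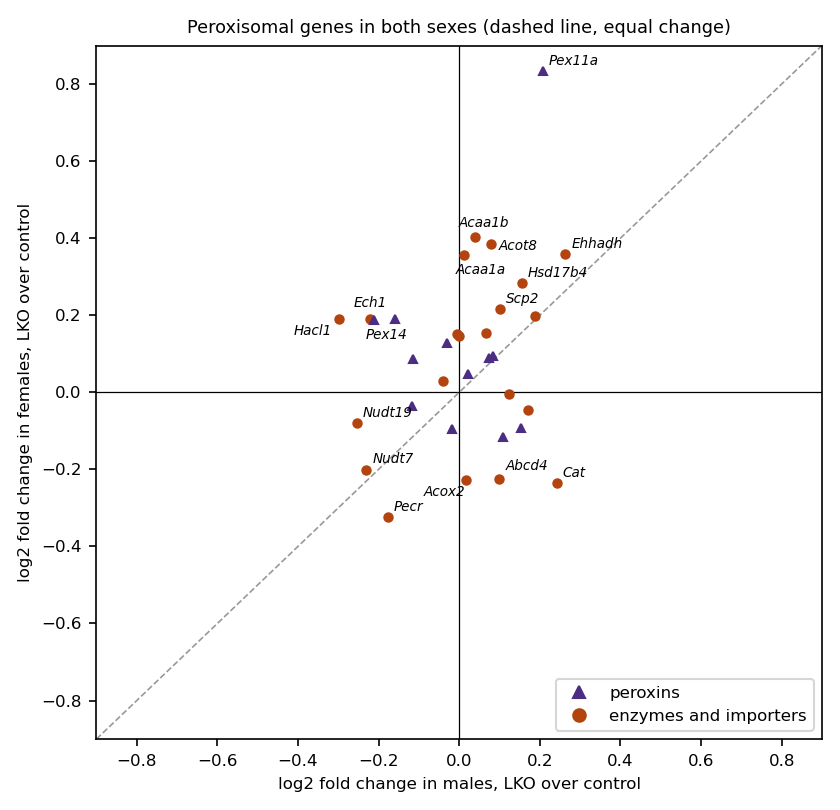
Log2 fold change of each member in males (horizontal) and in females (vertical), with peroxins as triangles, enzymes and importers as circles, and a dashed line of equal change. Pex11a lies highest at 0.21 in males and 0.83 in females, and Cat lies at 0.24 and -0.24; the sexes do not share control livers.

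Single livers moved many of these genes at once. LKO male 5 was the highest of its group for 11 of 33 members, and stood far above the other LKO males for Ehhadh, Hsd17b4, Acot12, Decr2 and Ech1. Its members took 1.89% of all counts, the most of any liver. Among the females, control females 5 and 6 had the lowest shares, 0.997% and 0.977%, and control female 4 the highest of the controls at 1.46%, leading its group in 16 of 33 members. LKO female 6 was the lowest of its group in 19 of 33 members. The summed CPM of the enzymes and importers there was 9691, where the other LKO females ran from 12516 to 13341 and the control females from 9235 to 13443. The summed CPM of the peroxins ran from 906 to 1131 in control females and from 1032 to 1180 in LKO females.

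Other peroxisomal genes were counted in the same way. Of 27 further genes of peroxisomal lipid and carnitine metabolism, 0 were called in either sex by edgeR, with a median log2 fold change of 0.056 in males and 0.13 in females. At an unadjusted p under 0.05, 4 were past the threshold in males (14.8%, beside 12.5% of all genes) and 6 in females (22.2%, beside 15.6%). Crat, the carnitine acetyltransferase, had the lowest p of that list in females, at 0.87 (SE 0.22, adjusted p 0.0620). Of 14 further peroxins and division factors tested, 0 were called in either sex, and at an unadjusted p under 0.05 there were 3 in males (21.4%, 1 higher and 2 lower) and 4 in females (28.6%, all higher). Trim37, a ubiquitin ligase linked to Pex5, had the lowest p in females, at 0.50 (SE 0.12, adjusted p 0.0517). Trim37 and Crat were called by DESeq2.

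Of the other matrix enzymes, which do not oxidise lipids, 0 of 12 were called in males, where 0.00724% of all genes were. In females 2 of 13 fell, where 1.42% of all genes were called. They were Paox, the polyamine oxidase, with a log2 fold change of -0.62 (SE 0.11, adjusted p 0.0144), and Pmvk, the phosphomevalonate kinase of sterol synthesis, with -0.81 (SE 0.19, adjusted p 0.0486). Pmvk lost its call in 16 of 21 alternative settings. With the sexes together both were called as well, at -0.56 and -0.75, where 0.365% of all genes were called. These calls were lost in 14 of 31 alternative settings for Paox and 19 of 31 for Pmvk. At an unadjusted p under 0.05 by edgeR, 2 were lower in males (16.7%, beside 12.5% of all genes past it). In females 2 were lower (15.4%, beside 15.6%). With the sexes together 6 of 13 were past the threshold (46.2%, beside 13.9%), 1 higher and 5 lower. The list had 3 of 13 above 0 in females, beside 51.1% of all genes, and 3 of 12 in males, beside 52.1%.

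PPAR-alpha targets outside the peroxisome formed the list with the highest median in females. This list, like the others, was drawn up with earlier results of these data known, so its shares are descriptive and test nothing. All 19 lay above 0, beside 51.1% of all genes, with a median log2 fold change of 0.56. At an unadjusted p under 0.05, 13 were higher, beside 8.31% of all genes, and 3 rose by edgeR's adjusted test, beside 1.42%. These were Cidec, a lipid droplet protein, at 2.01 (SE 0.32, adjusted p 0.00691), Acot2, a mitochondrial thioesterase, at 1.39 (SE 0.31, adjusted p 0.0384), and Ucp2, a mitochondrial carrier, at 0.42 (SE 0.092, adjusted p 0.0384). The calls of Ucp2 and Acot2 were lost in 8 and 9 of 21 alternative settings. In males 0 of 19 were called by edgeR and the median was 0.096. There 3 were past an unadjusted p of 0.05 (15.8%, beside 12.5% of all genes), 1 higher and 2 lower. The interaction was above 0 for all 19, beside 51% of all genes, with a median of 0.47, and 0 were called. Of 17 mitochondrial beta-oxidation genes, 0 were called in either sex by edgeR, with medians of -0.0065 in males and 0.14 in females. At an unadjusted p under 0.05 there were 2 in males (11.8%, beside 12.5% of all genes) and 6 in females (35.3%, beside 15.6%). Hadhb, a thiolase subunit of the trifunctional protein, had the lowest p in females at 0.36 (SE 0.11, adjusted p 0.132).

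**Figure D5:**
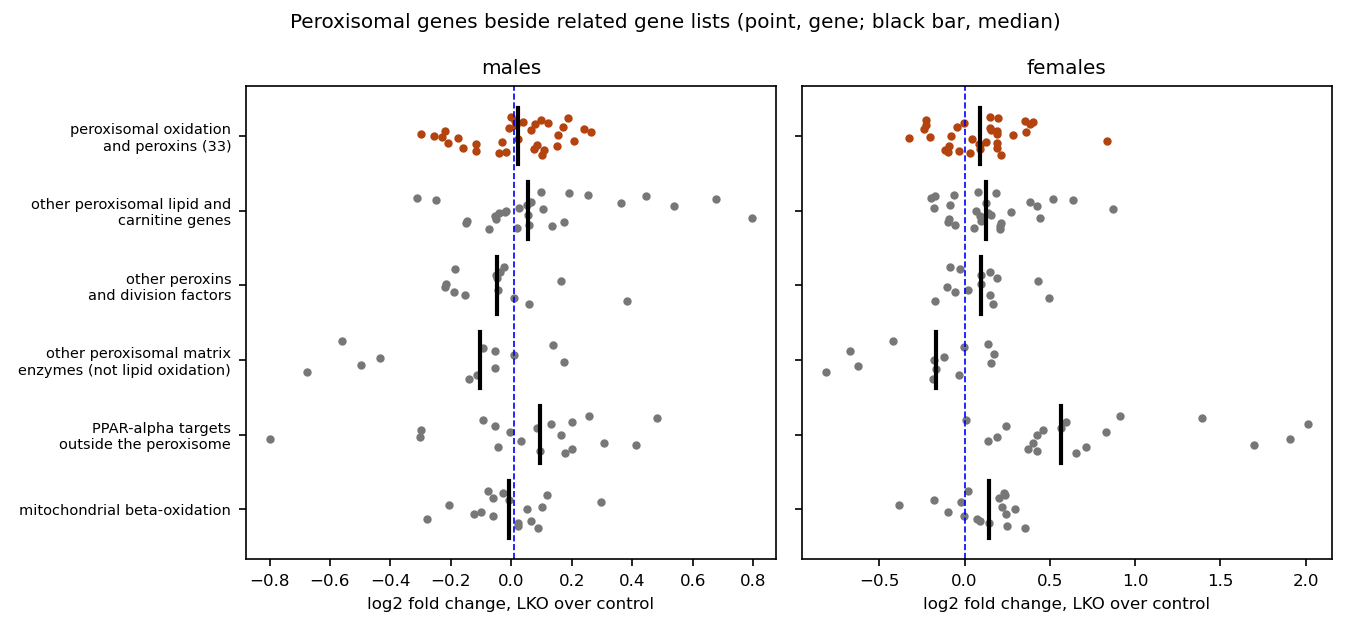
Log2 fold change of each gene (points) in the 33 peroxisomal genes and 5 related lists, in males (left) and females (right), with the median of each list as a black bar and the median of all genes as a dashed blue line. The horizontal axes differ. In females the bar of the PPAR-alpha targets sits at 0.56 and that of the 33 peroxisomal genes at 0.093.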

How the data were processed

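Poly-A RNA from 23 liver samples, each called a liver here, was sequenced, per the labels' protocols, from libraries made with random priming and dUTP. The labels do not say whether samples of a group are separate animals, so p-values measure the spread between these samples. The authors deposited 1 table per sex with raw counts, FPKM, normalized counts as a signal (each count over 1 size factor per sample), and their own log2 fold changes and p-values. Every sample column was mapped. The submitters' processing notes name mm39 and HISAT2 2.0.5 without a role; 0 of 33 member positions equal those of GRCm38. The counter, annotation and use of strand are not given in the sources used here.

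Counts were tested in R 4.3.3 with edgeR 4.0.16 (filterByExpr, TMM, quasi-likelihood, Benjamini-Hochberg over all genes), each sex alone and the 23 samples together for the interaction and the shared effect. CPM used TMM factors set within each table. Alternatives used DESeq2 1.42.0, limma 3.58.1 on log2(FPKM + 1) or log2(FPKM + 0.1), other scalings and filters, a replicate block and leaving out each sample. Tests were checked on simulated data. There edgeR called 26% of genes changed 1.5-fold in males, 48% in females, 20% in the interaction and 67% with the sexes together. For 2-fold changes these shares were 72%, 82%, 56% and 85%. Of the calls, 3.92%, 3.7%, 9.52% and 5.59% were false. A count of 0 called therefore excludes neither changes of 1.5-fold or less nor, for single genes, 2-fold changes, since part of these was missed. The simulation changed 200 genes per comparison. It gave 102 calls in males, 135 in females, 84 in the interaction and 161 with the sexes together. The data gave 1, 194, 0 and 53. With fewer calls the adjusted threshold is stricter, so the simulated shares need not hold for the data.

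The members and lists were chosen with earlier results of these data known. Values per sample are given for 14 members: the 8 with the lowest p in females, the 5 in males and the 3 in the interaction, the 3 most abundant in controls of either sex, and the pair Acaa1a and Acaa1b.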

Additional observations from a re-analysis of the deposited data

Results flagged for a closer look

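In 148 groups of values (33 genes and Cpt1a and 3 summed levels, in 4 groups), 17 had a liver far from the others by Dixon's criterion, where chance flags about 1 in 20. LKO male 5 was the highest of its group in 5 of them: 582 CPM for Ehhadh (others 252 to 284), 589 for Hsd17b4 (457 to 505), 119 for Acot12 (80.6 to 94.6), 338 for Decr2 (232 to 270.2) and 551 for Ech1 (369 to 421).

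LKO female 6 was the lowest of its group for Acaa1b at 2128 CPM (others 3724 to 4501), and for the summed CPM of the enzymes and importers at 9691 (12516 to 13341). Control male 6 was the highest of its group for Ech1 at 597 CPM (458 to 493) and Pex16 at 200.4 (137 to 154). The other livers far from their group were each so for 1 gene. They were control male 2 for Abcd4 at 17.2 CPM, LKO male 1 for Pex2 at 51.6, LKO female 3 for Pex26 at 46.8 and LKO female 5 for Acot12 at 125, all high. Control female 1 was high for Abcd2 at 47.2 CPM, while control female 2 was low for Acox2 at 89.2, control female 3 for Nudt19 at 48.8 and control female 6 for Pex6 at 196.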

How the results depend on the processing

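The count of 0 members called held under every alternative in males, the interaction and the sexes together. In females it was 2 with DESeq2 (Pex11a and Cat) and 1 with a replicate block (Pex11a, 0.91, adjusted p 0.0225), and 0 in the other alternatives. Same-numbered livers correlated above 0.1 in 1 of 5 male and 5 of 6 female pairs. The labels state no pairing, and whether the numbers pair the females was not settled. The main fits took no pairing in either sex. Control females correlated best with their own number in 4 of 6. The median of the members stayed above 0 throughout (0.0019 to 0.076 in males, 0.065 to 0.14 in females). Leaving out 1 liver changed the sign of 0 to 7 of the 33 members in males and 0 to 3 in females. With library size alone, 24 of 33 members lay above 0 in males. Of 64 single-gene results, 46 kept sign and side of the threshold throughout, 5 changed sign and 13 crossed the threshold.

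Phyh in males was 0.030 with library size alone and -0.11 to 0.095 without single livers, and in females -0.033 to 0.067. Without single livers, Acaa1a in males was -0.053 to 0.071 (-0.048 with the replicate block), Acaa1b -0.058 to 0.090 and Pecr -0.29 to 0.012.

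Of all genes, 2 were called in males with library size alone, with no filter and with the replicate block, 3 with at least 10 counts in every sample, 5 in a fit of the 23 samples and 106 with DESeq2, and 1 to 2 without single livers (2 without control male 1). In females these were 554 with DESeq2, 334 with the block, 94 in the fit of the 23 samples, and 87 to 233 without single livers (88, 96 and 104 without LKO females 2, 3 and 4, and 116, 87 and 111 without control females 1, 5 and 6). DESeq2 called 88 in the interaction, where leaving out livers gave 0 to 17 (17 without control male 4). With the sexes together there were 254 with DESeq2, 23 with the block and 13 to 143 without single livers. Of the other lists, Paox, Pmvk, Cidec, Ucp2 and Acot2 lost their calls in females in the fit of the 23 samples. The cause was not tested. Depth limited Abcd2 most, which rested on 20 counts in control male 4; the next lowest value of a member was 78 counts (Pex10).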
